A study of Mus musculus with 6 samples.

Results

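The proteasome is the barrel-shaped protease that degrades ubiquitin-tagged proteins, and its subunits are encoded by genes whose symbols begin with *Psm*. In the whole brain of adult mice, 0 of the 44 proteasome subunit genes tested passed the threshold between *Adar1* E861A/E861A *Ifih1*-/- and *Adar1*+/+ *Ifih1*-/- animals. Over all genes tested 69 of 13649, 0.506%, passed it, so the count of 0 does not set the subunits apart from other genes. The subunits were taken as every gene whose symbol is *Psma*, *Psmb*, *Psmc*, *Psmd*, *Psme*, *Psmf* or *Psmg* followed by a number and at most 1 letter. This gave 44 of the 13891 genes in the deposited table of expressed genes and 51 of the 37310 gene models in the count table. Of the 5 subunits known as interferon-inducible, *Psmb10*, *Psme1* and *Psme2* were among the 44, and *Psmb8* and *Psmb9* were read from the raw counts.

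The catalytic core, the 20S proteasome, is a stack of alpha and beta rings, and its protease sites lie in the beta subunits *Psmb5*, *Psmb6* and *Psmb7*. Under interferon, cells can replace these with *Psmb8*, *Psmb9* and *Psmb10* to form the immunoproteasome, and *Psme1* and *Psme2* form the 11S activator that opens the barrel, which together alter the peptides loaded on MHC class I. The 19S cap, built from the *Psmc* ATPases and *Psmd* subunits, binds and unfolds ubiquitin-tagged substrates. In healthy brain the constitutive forms are known to predominate.

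RNA sequencing was performed on 3 libraries of each genotype, from 12-week-old male C57BL/6 mice. Both genotypes lacked *Ifih1*, which encodes MDA5, the cytosolic sensor of double-stranded RNA. The E861A animals carried 2 germline copies of an *Adar1* allele whose product cannot edit RNA, so every cell was affected and no Cre or transgene was involved. A single-base change of this kind cannot be read from gene counts. The comparison asks what the loss of ADAR1 editing does to brain transcripts when MDA5 cannot signal.

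Libraries held 26853488 to 38076753 counts in genes, 11.02% to 13.79% of them mitochondrial. The labelled tissue was borne out by its markers: 8 neuron, 6 astrocyte and 6 oligodendrocyte markers were all among the genes tested, with none of them at 0. Replicate 1 of the E861A group stood apart in hormone transcripts of the pituitary, with 8416 counts of *Gh* against 0 to 47 in the other 5 libraries, and counts without this library are given below. The summed level of 8 endothelial markers was 121 to 154 CPM in E861A brains and 155 to 185 CPM in *Adar1*+/+ brains. That of 6 astrocyte markers was 5070 to 5450 CPM against 4460 to 4790 CPM. Most of this astrocyte sum was *Slc1a2*, at a mean of 4190 against 3650 CPM. The median log2 fold change of the 6 astrocyte markers was 0.025. The sum of 10 microglial markers was 167 to 184 CPM against 182 to 191 CPM. No gene of these marker lists passed the main test, which 0.506% of all genes tested passed. With the filterByExpr filter of edgeR the endothelial gene *Flt1* did (adjusted p = 0.0445), and when libraries were blocked by replicate the astrocyte gene *Slc1a2* did (log2 fold change 0.20, adjusted p = 0.0374). Their part in the subunit values was not tested, and in bulk tissue fewer cells of a type and less RNA per cell cannot be told apart.

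Because the inducible subunits are known as interferon targets, their promoters are shown before their levels. The windows run from 100 bases before to 30 bases after the RefSeq transcription start on GRCm38.p6, and capitals mark a match to an interferon motif on either strand.
Psmb8, chr17:34198095-34198224, plus strand: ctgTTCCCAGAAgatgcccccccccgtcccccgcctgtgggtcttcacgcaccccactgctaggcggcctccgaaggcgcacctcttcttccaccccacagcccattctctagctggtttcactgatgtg
Psmb9, chr17:34187301-34187430, minus strand: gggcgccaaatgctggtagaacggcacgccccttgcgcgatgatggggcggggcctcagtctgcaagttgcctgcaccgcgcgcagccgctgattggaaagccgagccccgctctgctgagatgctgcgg
Psmb10, chr8:105938363-105938492, minus strand: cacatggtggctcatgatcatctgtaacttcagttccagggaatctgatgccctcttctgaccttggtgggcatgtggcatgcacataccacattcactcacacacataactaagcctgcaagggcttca
Psme1, chr14:55578394-55578523, plus strand: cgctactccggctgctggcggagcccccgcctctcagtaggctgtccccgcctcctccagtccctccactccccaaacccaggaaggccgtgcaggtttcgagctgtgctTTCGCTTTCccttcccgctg
The interferon-stimulated response element core was searched as GAAANNGAA and the gamma-activated site as TTCNNNGAA, in windows from 250 bases before to 50 bases after the start. The capitals in *Psmb8* are a match to the gamma-activated site that starts 97 bases before the transcription start, and those in *Psme1* are a match to the response element core on the opposite strand that starts 10 bases after it. Neither set of letters was found in the windows of *Psmb9*, *Psmb10* or *Psme2*. The response element core was in 8.56% of 32851 promoter windows, in 1 of the 6 windows of the inducible subunits and in 6 of the 38 windows of the other subunits. For the gamma-activated site these were 8.298%, 1 of 6 and 2 of 38. The antioxidant response element core, TGACNNNGC, which is bound by the Nrf factors known to control constitutive subunits, was in 12.392% of all windows. It was in 0 of the 6 inducible windows and 6 of the other 38, *Psmb5* and *Psmb6* among them. The 44 subunit windows belonged to 41 genes, and a match is a description of letters, not of a factor at work.

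*Psmb8* encodes the immunoproteasome form of the chymotrypsin-like subunit. It drew 35, 41 and 35 reads in the E861A libraries and 33, 29 and 20 in the *Adar1*+/+ libraries, too few for the expression filter. As CPM, the counts scaled to library size with TMM factors, these were 1.20, 1.15 and 1.32 CPM against 0.906, 0.777 and 0.562 CPM. All 3 E861A libraries were above all 3 *Adar1*+/+ libraries, and the means were 1.22 ± 0.0905 and 0.748 ± 0.174 CPM (SD, n = 3). The exact two-sided permutation test gave p = 0.1, which is the smallest value that 3 against 3 libraries allow. In the fit with the looser filterByExpr filter of edgeR, the log2 fold change was 0.69 ± 0.23 (SE, 95% interval 0.20 to 1.19). The unadjusted p was 0.00902, and the adjusted p of the edgeR quasi-likelihood test was 0.378, so *Psmb8* was not called. In that fit 110 of 19366 genes, 0.568%, were called. Without any filter 376 of 29282 genes, 1.28%, were called, and the adjusted p of *Psmb8* was 0.208, or 0.0649 with the replicate number as a block. In the fit without a filter the prior degrees of freedom were infinite, against 12.6 with filterByExpr. A gene's own spread then carried little weight, so p-values can be too small. *Gh*, high in a single library, had an SE of only 0.12 there. In the filterByExpr fit the block gave an adjusted p of 0.194, and omitting each library in turn gave a log2 fold change of 0.53 to 0.85 with an adjusted p of 0.241 to 0.876. The difference seen in *Psmb8* therefore stood on 20 to 41 reads a library and did not pass the adjusted threshold in any of these fits. A stretch of 187 of its 2736 exonic bases is shared with a model on the opposite strand, *Gm20496*, which had 0 counts.

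*Psmb9* encodes the immunoproteasome form of the caspase-like subunit and had 0 counts in all 6 libraries. This 0 is not a measure of its level. The annotation holds 2 models of *Psmb9* on the minus strand of chromosome 17 (NCBIM37), at chr17:34318932-34324697 and chr17:34318933-34324709, and 3647 of the 3648 exonic bases of the first lie in the second. The counting used gives a read to a gene only where a single gene overlaps it. The start of *Tap1*, the peptide transporter gene on the opposite strand, overlaps the first model over 200 bases. *Tap1* itself had 51, 75 and 52 counts against 55, 55 and 39, with a log2 fold change of 0.51 and an adjusted p of 0.469 in the filterByExpr fit. *Psmb8* lies on the other side of *Tap1*, at chr17:34334666-34338399.

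**Figure D1:**
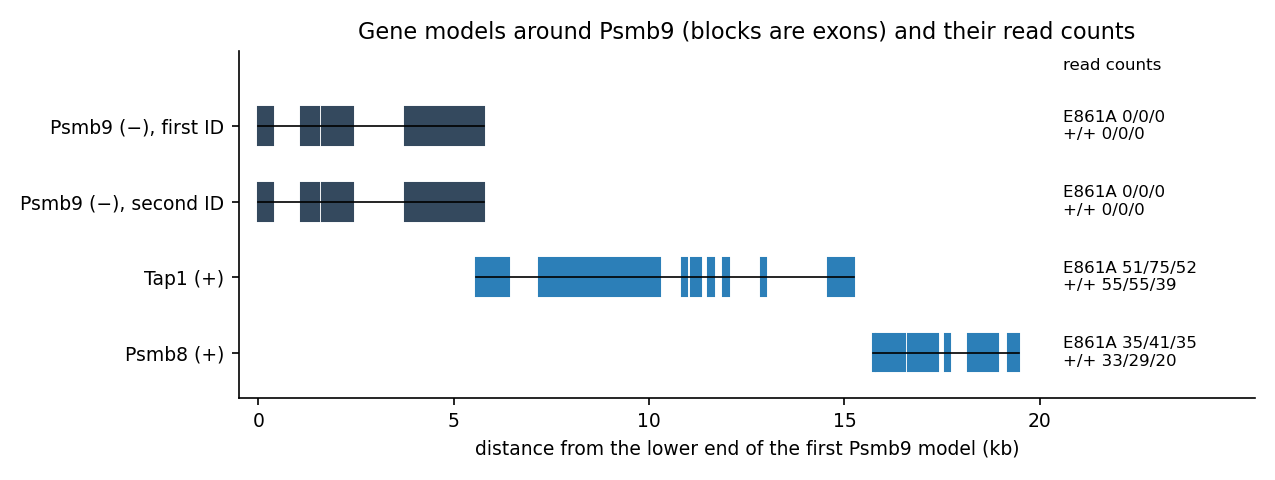
Gene models around *Psmb9* in the NCBIM37 annotation, with distance in kb on the x axis and exons as blocks (dark, minus strand; blue, plus strand). The counts of the 3 E861A and the 3 *Adar1*+/+ libraries stand to the right. The 2 *Psmb9* models lie on top of each other and each has 0 counts, while *Tap1* and *Psmb8* have 20 to 75.

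The third immunoproteasome subunit, *Psmb10*, is the inducible form of the trypsin-like site and was well above the filter. It had 257, 358 and 254 counts in the E861A libraries and 337, 327 and 342 in the *Adar1*+/+ libraries. The levels were 8.78, 10.0 and 9.61 CPM against 9.25, 8.76 and 9.61 CPM. The groups overlapped throughout, with a log2 fold change of 0.044 ± 0.088 (SE, 95% interval -0.15 to 0.23) and an adjusted p of 0.915 in the edgeR quasi-likelihood test.

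*Psme1* and *Psme2*, the alpha and beta subunits of the 11S activator, also had overlapping genotypes. *Psme1* was at 12.9, 12.1 and 13.0 CPM in E861A brains and 13.5, 12.0 and 12.5 CPM in *Adar1*+/+ brains. Its log2 fold change was -0.0012 ± 0.077 (95% interval -0.17 to 0.16, adjusted p = 0.998, edgeR). *Psme2* was at 10.4, 10.3 and 9.99 CPM against 10.4, 10.2 and 9.35 CPM. Its log2 fold change was 0.035 ± 0.082 (95% interval -0.14 to 0.21, adjusted p = 0.929, edgeR). Neither activator subunit had groups that stood apart. *Psme2b*, an intronless gene on chromosome 11 that is 99.4% identical to the *Psme2* transcript over 794 bases, had 10, 22 and 20 counts against 24, 11 and 15. Reads from the near-identical stretch cannot be placed with certainty, so both counts are uncertain.

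Over the 3 inducible subunits tested, the median log2 fold change was 0.03, and the intervals ran from -0.17 to 0.23. Over the other 41 subunits the median was -0.02, and over all 13649 genes tested it was -0.0010. Without replicate 3 of the *Adar1*+/+ group the inducible median was -0.0096. The medians are descriptions of 3 and 41 genes and were not tested against each other.

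**Figure D2:**
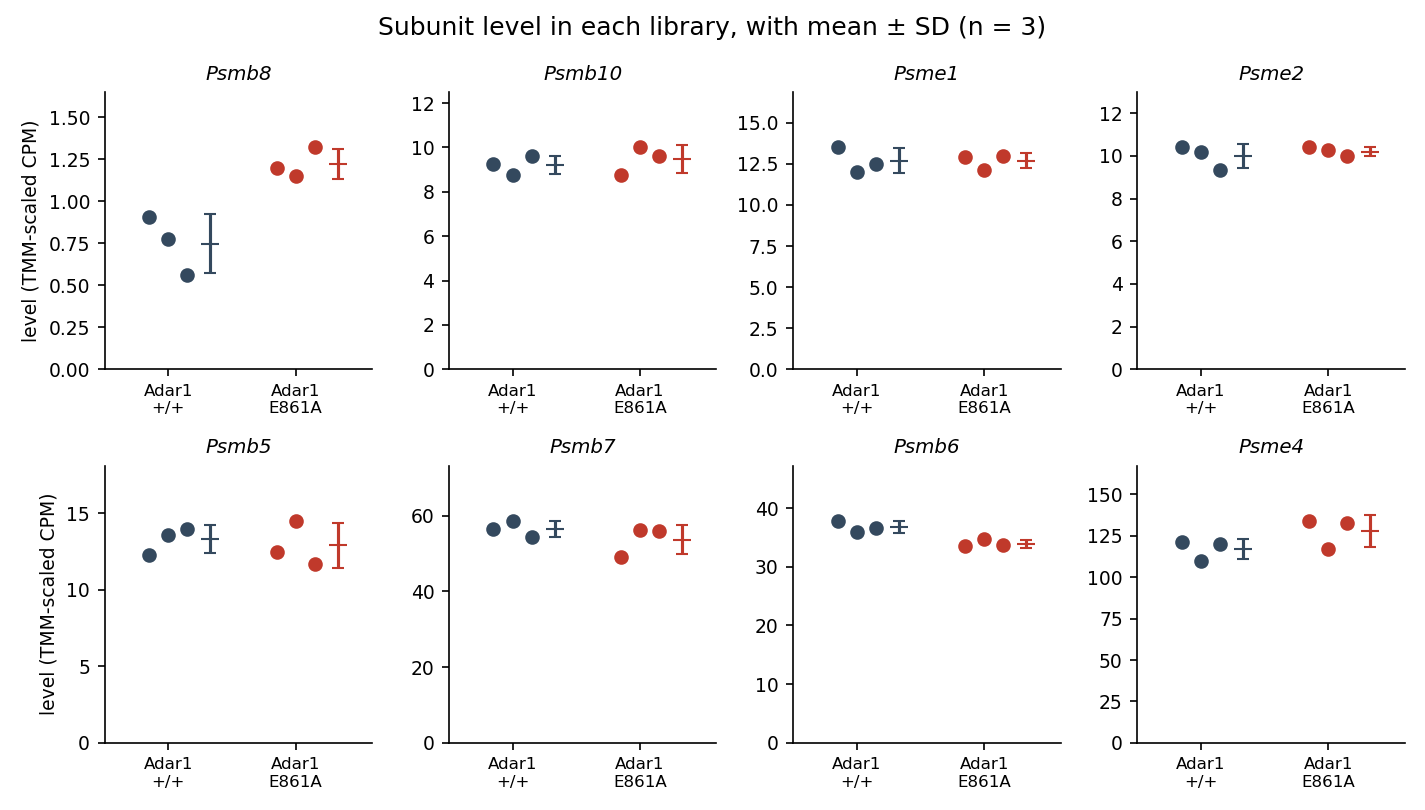
Level in CPM (y axis, from 0) of 4 inducible subunits, the constitutive *Psmb5*, *Psmb6* and *Psmb7*, and *Psme4* in each of the 3 libraries per genotype, with mean ± SD. *Psmb8* and *Psmb6* have genotypes that do not overlap, in opposite directions, and in the others the points overlap.

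Of the constitutive subunits that the inducible forms replace, *Psmb5*, the chymotrypsin-like subunit, was at 12.5, 14.5 and 11.7 CPM in E861A brains and 12.3, 13.6 and 14.0 CPM in *Adar1*+/+ brains (log2 fold change -0.035 ± 0.09, adjusted p = 0.935, edgeR). *Psmb7*, the trypsin-like subunit, was at 49.2, 56.1 and 55.9 CPM against 56.5, 58.6 and 54.4 CPM (log2 fold change -0.072 ± 0.058, adjusted p = 0.748, edgeR). In both genes the genotypes overlapped. *Psmb6*, the caspase-like subunit, was at 33.5, 34.7 and 33.7 CPM against 37.8, 35.9 and 36.6 CPM. Every E861A library was below every *Adar1*+/+ library, by a log2 fold change of -0.11 ± 0.05 (95% interval -0.22 to -0.01). Its unadjusted p of 0.0412 was the only one under 0.05 among the 44 subunits, against 1230 of all 13649 genes, and its adjusted p of 0.539 (edgeR) was the smallest of the 44.

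The balance of inducible to constitutive subunit was read within each library, per kb of exon. *Psmb8* stood at 3.21%, 2.67% and 3.83% of *Psmb5* in the E861A libraries and at 2.49%, 1.93% and 1.35% in the *Adar1*+/+ libraries. The groups did not overlap, with means of 3.24% ± 0.581 and 1.92% ± 0.569 (SD, n = 3; exact permutation test, two-sided p = 0.1, the smallest possible). *Psmb10* stood at 17.0%, 17.1% and 16.4% of *Psmb7* against 15.6%, 14.3% and 16.9% (exact permutation test, two-sided p = 0.2), and here the groups overlapped. By these counts and lengths the constitutive form was far the more abundant per kb in both genotypes. The size of the *Psmb8* share is uncertain. *Psmb5* has a copy on chromosome 7 that is 99.0% identical over 870 bases, so its counts are uncertain. The 2736 bases of *Psmb8* join all its annotated exons, which can place it too low.

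Over the whole gene table, 69 of 13649 genes, 0.506%, were called at an adjusted p of 0.05, and 0 of the 44 subunits. Blocking on the replicate number gave 158 calls, 1.16% of the genes, again with 0 subunits. The subunits had 17 positive and 27 negative log2 fold changes, between -0.13 and 0.15, with standard errors of 0.045 to 0.134. None exceeded 0.2 in either direction, against 8.18% of all genes. The subunits were at a higher median level (43.2 against 22.7 CPM in *Adar1*+/+ brains) with a smaller median standard error (0.056 against 0.068). No share was computed for genes matched on level. DESeq2 and limma-voom each called 0 as well. Without replicate 1 of the E861A group 0 of 44 were called, with 18 positive and 26 negative values. The subunits whose genotypes did not overlap were 4, or 9.09%, against 14.2% of all genes. These 4, named after their values were seen, were *Psmb6*, *Psmd14* and *Psme3* on the negative side and *Psma3* on the positive side.

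**Figure D3:**
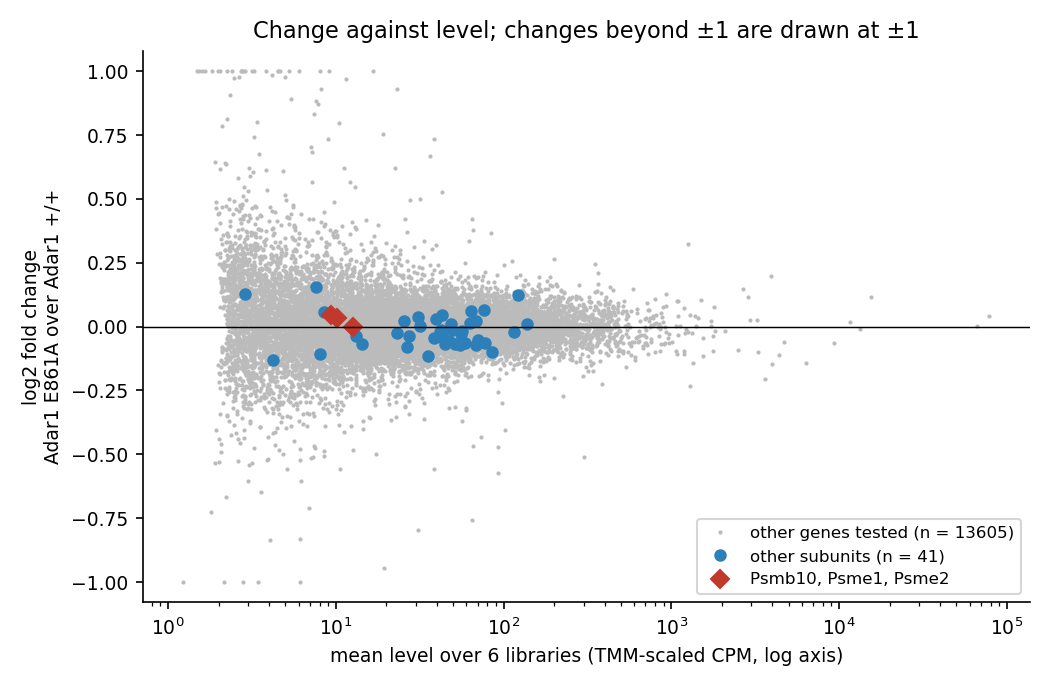
Log2 fold change of E861A over *Adar1*+/+ (y axis, cut at ±1) against the mean level over 6 libraries in CPM (x axis, log scale) for 13649 genes. The 41 other subunits (blue) and *Psmb10*, *Psme1* and *Psme2* (red) lie between -0.13 and 0.15, inside the spread of genes at the same level (grey).

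The 95% intervals give, for each of the 44 subunits tested, the range of change left by its own data. They were not adjusted for the number of subunits, so they are not joint limits. They do not cover the subunits below the filter. In the filterByExpr fit the interval was 0.20 to 1.19 for *Psmb8* and -0.44 to 1.06 for *Psme2b*, and *Psmb9* could not be measured. In 38 of the 44 subunits the 95% interval lay within a log2 fold change of ±0.25, a change of at most 18.9% upwards, and in all 44 it lay within ±0.5, at most 41.4%. The 6 outside the narrower bound were *Psmd10*, *Psmg1*, *Psmg2*, *Psmg3*, *Psmg4* and *Psme4*.

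By role, the alpha ring, which gates entry to the chamber, had 3 positive and 4 negative values among 7 subunits, from -0.07 to 0.06. The 7 constitutive beta subunits had 2 positive and 5 negative, with a median of -0.04. The 6 ATPases *Psmc1* to *Psmc6*, the unfolding motor of the cap, had 1 positive and 5 negative, with a median of -0.06. The 11 other cap subunits, which hold the ubiquitin receptors and the deubiquitinase *Psmd14*, had 3 positive and 8 negative, with a median of -0.02. The lowest of the ATPases was *Psmc1*, at 79.0, 87.7 and 78.6 CPM in E861A brains against 84.4, 94.2 and 84.8 CPM. Its log2 fold change was -0.10 ± 0.06 and its adjusted p was 0.637 (edgeR). The genotypes of *Psmc1* overlapped. With the replicate block, for which no pairing was established, the adjusted p was 0.218 (edgeR). The genome holds 2 near-identical copies of its transcript, 95.6% and 95.1% identical, so its counts are uncertain.

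The lowest and the highest log2 fold change among the 44 subunits both belonged to chaperones that assemble the 20S core, whose levels of 2.77 to 8.31 CPM were the lowest of the subunits tested. *Psmg3* was at 4.37, 4.23 and 3.40 CPM in E861A brains and 4.03, 4.96 and 4.21 CPM in *Adar1*+/+ brains (log2 fold change -0.13 ± 0.13, adjusted p = 0.81, edgeR). *Psmg2* was at 7.03, 8.80 and 7.19 CPM against 7.36, 9.03 and 8.54 CPM (log2 fold change -0.11 ± 0.11, adjusted p = 0.814, edgeR). Both lay on the negative side with overlapping genotypes. *Psmg1* was at 7.89, 7.65 and 8.55 CPM against 8.04, 6.51 and 7.05 CPM (log2 fold change 0.15 ± 0.10, adjusted p = 0.692, edgeR). *Psmg4* was at 2.90, 3.11 and 3.03 CPM against 2.80, 2.52 and 2.98 CPM (log2 fold change 0.13 ± 0.13, adjusted p = 0.812, edgeR). The products of *Psmg1* and *Psmg2* act as a pair, as do those of *Psmg3* and *Psmg4*, and in each pair 1 estimate was positive and 1 negative, all 4 with 95% intervals that included 0. The 3 chaperones of the 19S cap, *Psmd5*, *Psmd9* and *Psmd10*, lay between -0.07 and 0.06.

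The other regulators of the barrel were *Psme3*, *Psme4* and *Psmf1*. *Psme4* encodes PA200, an activator known for the degradation of acetylated histones. It was at 134, 117 and 133 CPM in E861A brains and 121, 110 and 120 CPM in *Adar1*+/+ brains. The groups overlapped through replicate 2 of E861A, and the log2 fold change was 0.12 ± 0.06 (unadjusted p = 0.0536, adjusted p = 0.558, edgeR). With the replicate block its adjusted p was 0.121, and without replicate 2 of the E861A group 0.136, both the smallest among the subunits in those fits. *Psme3*, the nuclear activator PA28 gamma, had a log2 fold change of -0.05, and *Psmf1*, an inhibitor of the 20S core, one of 0.02.

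**Figure D4:**
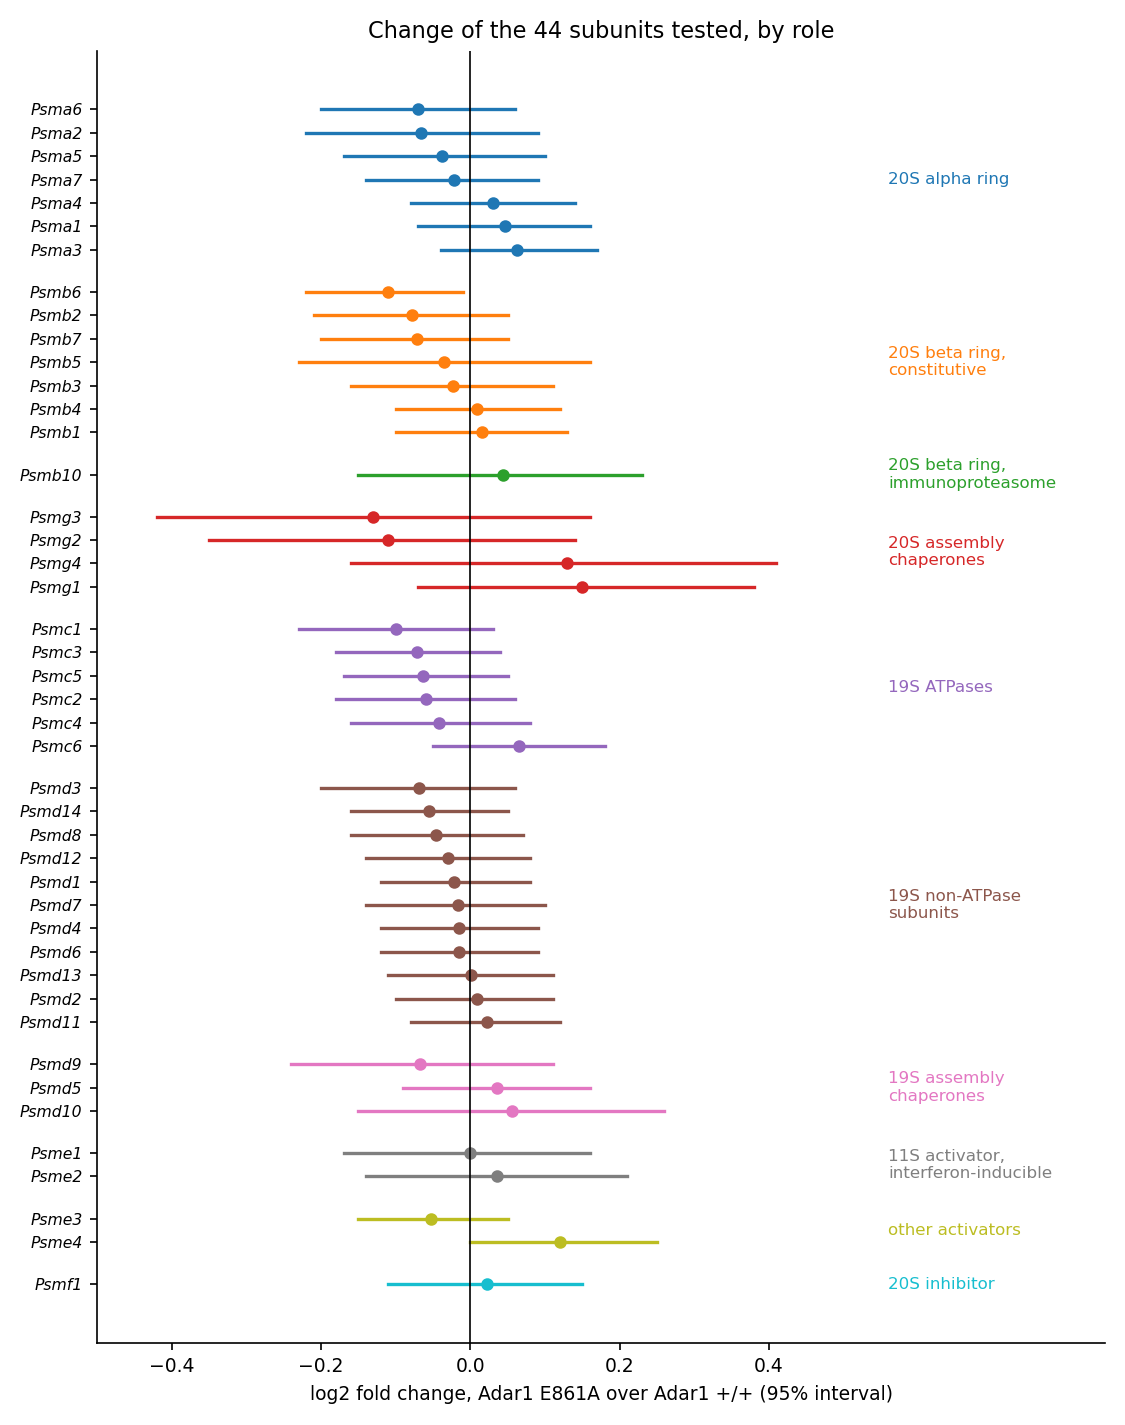
Log2 fold change of E861A over *Adar1*+/+ (x axis) with its 95% interval for each of the 44 subunits, grouped by role. Every interval lies within ±0.5, and *Psmb6* has the only interval wholly below 0.

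Levels between subunits were compared per kb of annotated exon in the *Adar1*+/+ libraries. Across the 31 subunits of the 20S rings and the 19S cap they ran from 9.40 CPM per kb (*Psmd13*) to 60.4 CPM per kb (*Psmb1*), a 6.43-fold range with a median of 20.9. *Psmb10* stood at 7.25, *Psme1* at 5.74 and *Psme2* at 5.67 CPM per kb, below all 31. *Psmb8* was lower by far, at 0.273 CPM per kb. *Psme3* and *Psme4* were at 24.4 and 14.0, *Psmf1* at 3.90, the 20S chaperones at 4.99 to 6.38 and the 19S chaperones at 3.22 to 8.83 CPM per kb. The lengths join all annotated exons of a gene, so a gene with long rare exons is placed too low.

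**Figure D5:**
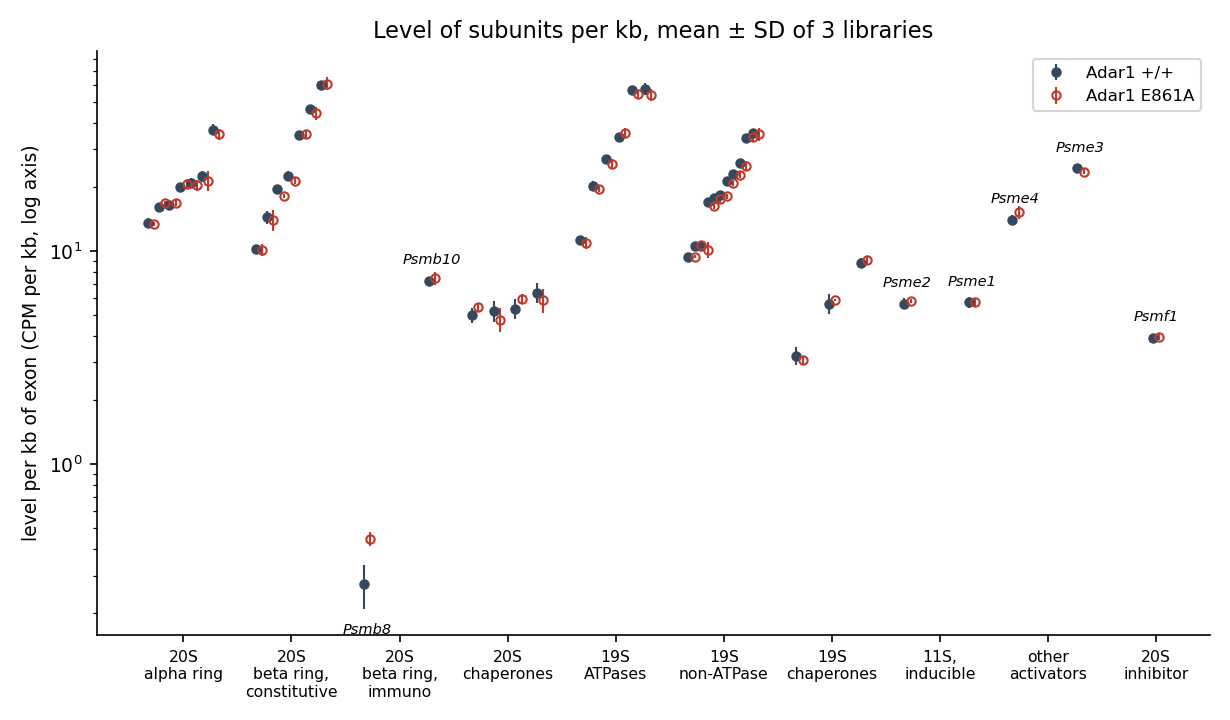
Level per kb of exon (y axis, log scale, CPM per kb) of the 44 subunits and *Psmb8* by role, as mean ± SD of 3 libraries for *Adar1*+/+ (filled) and E861A (open). *Psmb8* lies below every other subunit in both genotypes.

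The summed level of the 31 core subunits was 1634.4, 1711.9 and 1661.4 CPM in E861A brains and 1688.7, 1730.5 and 1676.9 CPM in *Adar1*+/+ brains (exact permutation test, two-sided p = 0.4). The genotypes overlapped in this sum. All subunits together took 0.197% to 0.203% of the counts in each library. Against the *Adar1*+/+ mean, the median subunit stood at -0.037, 0.007 and -0.008 on the log2 scale in the E861A libraries and at -0.001, 0.017 and -0.015 in the *Adar1*+/+ libraries. Replicate 1 of E861A had 14 of 44 subunits above that mean, and the other libraries 16 to 31.

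The remaining rows of the count table were subunits known from other tissues. *Psma8*, the alpha subunit of the testis, had 6, 20 and 10 counts against 9, 12 and 12, and *Psmb11*, the beta subunit of the thymic cortex, had 4, 3 and 7 against 6, 3 and 7. A second model of *Psmd14*, whose 338 exonic bases all lie in the first, had 0 counts. Near-identical copies elsewhere in the genome were found for 10 of the 51 transcripts (at least 95% identity over 300 bases): *Psma3*, *Psma4*, *Psma5*, *Psmb3*, *Psmb5*, *Psmc1*, *Psmd11*, *Psmd2*, *Psme2* and *Psme2b*. Their counts are uncertain to the extent that reads could not be placed on a single copy.

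Proteins that work with the proteasome without being subunits, among them the deubiquitinase *Usp14* and the transcription factor *Nfe2l1*, gave 0 called genes of 21. Over all genes tested 0.506% were called, so this count of 0 does not set the factors apart. The 21 factors had 7 positive and 14 negative values with a median of -0.01. The value farthest from 0 was that of *Nfe2l2*, the oxidative stress factor NRF2, at 18.0 ± 1.37 against 15.2 ± 1.43 CPM (SD, n = 3; log2 fold change 0.24 ± 0.08, adjusted p = 0.392, edgeR).

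The pathway that the immunoproteasome feeds, peptide loading on MHC class I, gave 3 called genes of 11, all higher in E861A brains, with a list median of 0.08. Over all genes tested 0.506% were called, and this list was chosen with earlier results of these data known. *Nlrc5*, the transactivator of class I genes, had 63, 81 and 61 counts in E861A libraries and 32, 28 and 18 in *Adar1*+/+ libraries. It rose by a log2 fold change of 1.65 ± 0.20 (adjusted p = 0.000487, edgeR). At 2.24 against 0.711 CPM it passed the filter only through the E861A group, and with a filter on all 6 libraries it was not tested and the list had 2 called genes. In the filterByExpr fit its adjusted p was 0.00037. *B2m*, the light chain of class I, had 1298, 1857 and 1486 counts against 1255, 1421 and 1188, and rose by 0.53 ± 0.08 on the log2 scale (adjusted p = 0.00357, edgeR). The call of *B2m* was lost without replicate 3 of the E861A group (adjusted p = 0.0594). For *Nlrc5* and *B2m* the genotypes did not overlap in CPM. Both passed the test in the same libraries in which *Psmb10*, *Psme1* and *Psme2* had 95% intervals that ended at or below 0.23. This does not extend to all inducible subunits. *Psmb8* had a log2 fold change of 0.69 (95% interval 0.20 to 1.19) in the filterByExpr fit and was not called, and *Psmb9* could not be measured.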

How the data were processed

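RNA was taken from whole brain, depleted of ribosomal RNA and sequenced as 75-base paired reads in a single run. Per the submitters' processing notes and the study's methods, reads were trimmed with Trimmomatic 0.36, aligned to mm9 (NCBIM37) with STAR 2.5.2a and counted per gene with the gene counting of STAR. The strand column taken was not given in the sources used here, so overlapping and antisense genes are uncertain. The authors deposited raw counts for 37310 genes and CPM for 13891 retained genes, which matched the counts. A deposited table of the authors' own comparison (fold changes and false discovery rates) was not used.

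The 13649 genes that reached a CPM of 2 in 3 of 3 libraries of at least 1 genotype were tested with the quasi-likelihood test of edgeR 4.0.16 on raw counts, TMM scaling (factors 0.985 to 1.02) and Benjamini-Hochberg adjustment over all genes, with a threshold of 0.05 (R 4.3.3). Intervals are 95%. CPM in the text are TMM-scaled over the tested genes. A count of 0 allows up to 3 counts, 0.0788 to 0.112 CPM by library, for counting error only. Alternatives were DESeq2 1.42.0, limma-voom (limma 3.58.1), other edgeR tests, scalings and filters, a replicate block and omission of each library. The filterByExpr fits beyond the plain one were chosen after seeing the data, since *Psmb8* failed the filter. Scripts were tested on simulated data. Same-numbered libraries deviated together across genes (r = 0.221, 0.329 and 0.112). The labels name no pair or batch, and other matchings of the libraries were not examined, so a pairing was not established. The replicate block is given only as an alternative. Copies were sought with minimap2 2.31, and gene models came from GENCODE vM1.

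The members and lists were chosen with earlier results of these data known. Values in every library are given for the inducible subunits, *Psmb5*, *Psmb6*, *Psmb7*, any called subunit and the 3 highest and 3 lowest remaining fold changes. From the 2 pathway lists the called genes and the value farthest from 0 are named, except 1 called gene that is not reported here. Of 22 proteasome-associated factors 21 were matched. The lists of neuron, astrocyte, oligodendrocyte, microglia, endothelium and lymphocyte markers gave 0 called genes in the main test (1 of 10 lymphocyte genes was tested), and 0 of 6 pituitary genes passed the filter. The labels name the replicates of each genotype as separate biological replicates.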

Additional observations from a re-analysis of the deposited data

How the results depend on the processing

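No subunit and no proteasome-associated factor was called under any alternative. Over all genes, 69 calls became 139 with the likelihood ratio test and 139 with the exact test of edgeR, 110 with filterByExpr, 376 without a filter and 42 when all 6 libraries had to reach a CPM of 2, and stayed between 63 and 82 in the others. The replicate block gave 158 calls, among them the astrocyte marker *Slc1a2*, and changed no call of a subunit or of the 2 pathway lists. Omitting each library in turn gave 42 to 113 calls (42 without E861A replicate 3, 113 without E861A replicate 2 and 108 without *Adar1*+/+ replicate 2), and the cause was not tested. The inducible median ran from -0.0096 to 0.0490 when each library was omitted. Estimates near 0 changed sign: *Psme1* was 0.0074 with upper quartile factors, 0.0001 with the filter on all 6 libraries and 0.0010 with the block. When each library was omitted, *Psme1* ran from -0.0392 to 0.0484, *Psme2* from -0.0107 to 0.0680, *Psmb5* from -0.1356 to 0.0302 and *Psmb10* from -0.0050 to 0.0933. *Psmb6*, *Psmb7*, *Psmb8*, *Psmc1*, *Psme4* and *Psmg1* to *Psmg4* kept their sign under every alternative run for them. Depth limits *Psmb8*, at 20 to 41 reads a library, and counting limits *Psmb9*.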
